A study of Mus musculus with 23 samples.

Results

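Astrocytes clear glutamate from the space around synapses, convert it to glutamine, and hold the extracellular water, potassium and bicarbonate steady. The 10 genes described here encode parts of that machinery: the glutamate transporters Slc1a2 and Slc1a3, the glutamine synthetase Glul, the bicarbonate cotransporter Slc4a4, the water channel Aqp4, the gap junction proteins Gja1 and Gjb6, the metabolic enzymes Aldh1l1 and Acsbg1, and the cytosolic protein Ndrg2. They were chosen by name as genes of astrocyte glutamate uptake and homeostasis, 10 of the 18578 genes in the table. Earlier results of these data were known when they were chosen. All 10 were among the 17118 genes with a mean of at least 10 normalized counts, which were tested.

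The RNA came from the brains of male C57BL/6J mice and was sequenced in 23 libraries of 4 groups. HT mice carried the Grin2b C456Y allele on a single copy of the gene, called heterotype in the labels and heterozygous in the series text, and WT mice carried none. The groups were HT shock (6 libraries, foot-shock), HT control (6, labelled control), WT shock (5, foot-shock) and WT control (6, labelled control). Foot-shock delivers an unpleasant current through the floor. Grin2b codes for GluN2B, a subunit of the glutamate-gated NMDA receptor, and the labels name no cell type to which the allele is limited. The labels give postnatal day 17 and the series text adult mice, so the age is unresolved, and no brain region is named. Nothing in the labels ties each library to its own animal, and p-values measure only the spread between these libraries.

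Totals were 30.98 to 32.57 M normalized counts per library, which do not show the sequencing depth, and depth is unknown. The median correlation of a library with its own group was 0.986 to 0.990 on the log2 scale. Grin2b averaged 10704 ± 655 normalized counts in HT shock, 12301 ± 1678 in HT control, 12833 ± 1389 in WT shock and 13621 ± 1019 in WT control (SD, n = 6, 6, 5 and 6). It was lower in HT in the genotype average (log2 difference -0.21 ± 0.06 SE, adjusted p = 0.0209 with limma), and in HT shock against WT shock it was at -0.26 ± 0.08 (adjusted p = 0.0507), which did not pass. The counts do not separate the alleles, so these levels are no check of the genotype. HT control replicate 6 stood apart from its group. On the first principal component (12.9% of the variance) it lay at 31.3, with HT control replicates 1 to 5 between -12.7 and 5.17 and the HT shock libraries between 11.4 and 26.0. Results that turn on this library are given with and without it.

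Slc1a2 (also called GLT1 or EAAT2) carries most of the glutamate uptake of the forebrain, and Slc1a3 (GLAST or EAAT1) is the other astrocytic glutamate transporter. Glul makes glutamine from the glutamate taken up, and neurons turn that glutamine back into transmitter. Aqp4 sits on the astrocyte endfeet around vessels, and Gja1 and Gjb6 couple astrocytes into a network. Aldh1l1, a folate enzyme, is widely used as a marker of all astrocytes.

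Per kilobase of annotated exon, Glul had the highest level, 14710 ± 737 normalized counts per kb in HT shock and 16280 ± 687 in WT control (SD, n = 6 each). Ndrg2 followed with 9926 ± 140 in HT shock and 10329 ± 192 in WT control. Slc1a2 had 3937 ± 297 in HT shock and 4642 ± 243 in WT control, and Slc1a3 had 3039 ± 227 in HT shock and 3173 ± 183 in WT control. Acsbg1 (1679 in HT shock, 1726 in WT control) and Gja1 (1124 in HT shock, 1250 in WT control) lay in the middle of the list. The lowest levels were those of Gjb6, Aqp4, Slc4a4 and Aldh1l1. In HT shock Gjb6 (622 ± 50.1) and Aqp4 (590 ± 59.8) differed by less than their SDs, and Slc4a4 (475 ± 39.8) and Aldh1l1 (451 ± 17.7) by less than the SD of Slc4a4. In WT control Aqp4 (703 ± 78.2), Gjb6 (668) and Slc4a4 (645 ± 61.2) lay within an SD of Aqp4, and Aldh1l1 was below them at 428 ± 37.5. These lengths take every annotated exon of a gene and not the isoforms used.

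**Figure D1:**
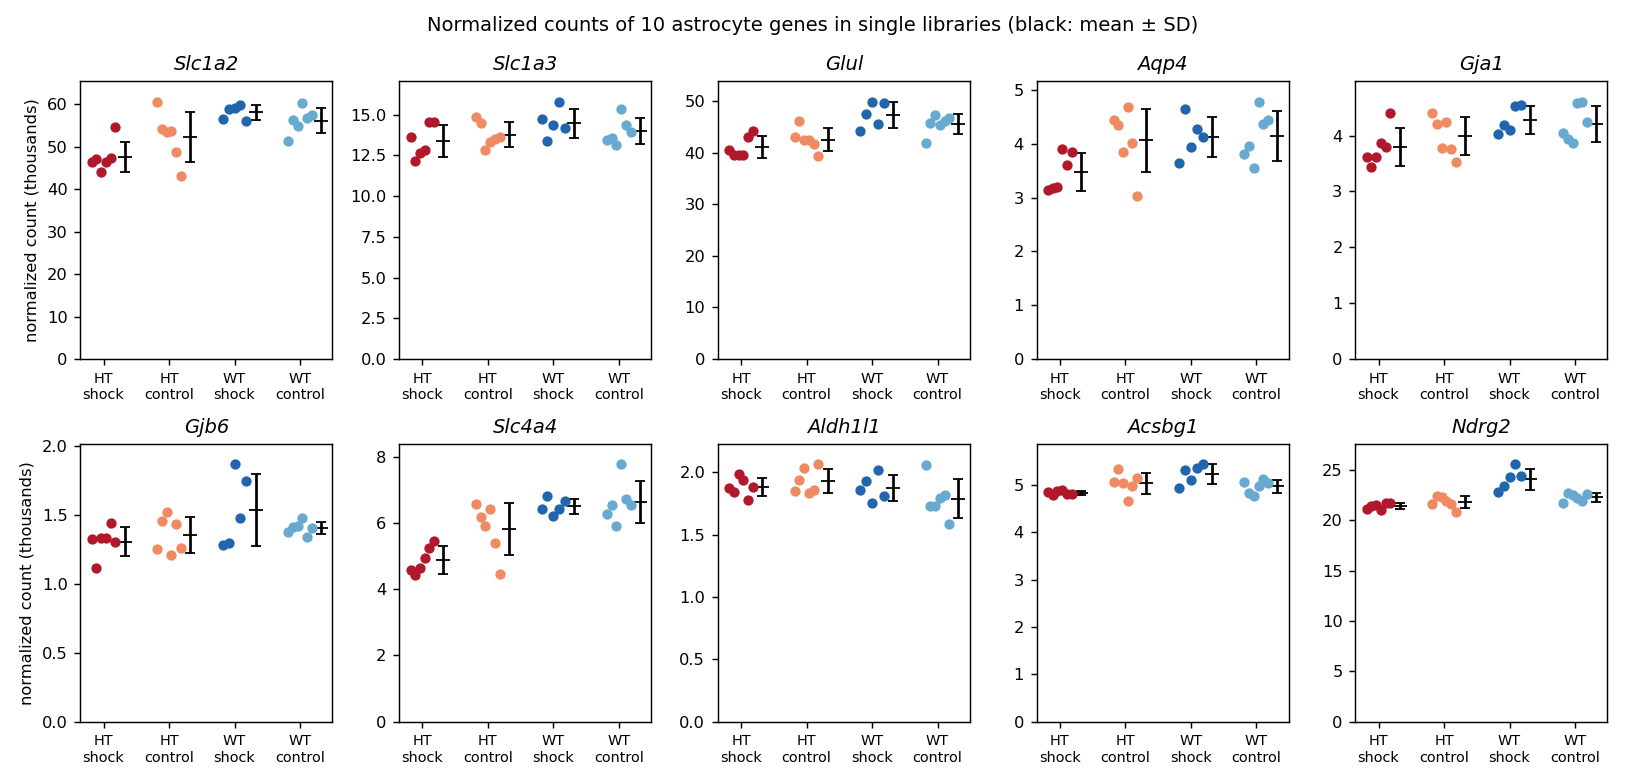
Normalized counts of the 10 genes in single libraries (each vertical axis starts at 0; points are libraries, black bars the mean ± SD), with HT shock, HT control, WT shock and WT control from left to right. Slc4a4 in HT shock sits between 4420 and 5461, below every WT shock library, and Aldh1l1 overlaps in all 4 groups.

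On GRCm38, Slc1a2 (ENSMUSG00000005089) spans bases 102658659 to 102790784 of chromosome 2 on the plus strand, and Slc1a3 (ENSMUSG00000005360) bases 8634124 to 8710764 of chromosome 15 on the minus strand. Glul (ENSMUSG00000026473) lies on chromosome 1 from 153899944 to 153909723 on the plus strand, and Slc4a4 (ENSMUSG00000060961) on chromosome 5 from 88886818 to 89239653 on the plus strand. Ndrg2 (ENSMUSG00000004558) occupies chromosome 14 from 51905271 to 51914158 on the minus strand, and Aldh1l1 (ENSMUSG00000030088) chromosome 6 from 90486427 to 90600203 on the plus strand. Gja1 (ENSMUSG00000050953) lies on chromosome 10 from 56377330 to 56402513 on the plus strand, Gjb6 (ENSMUSG00000040055) on chromosome 14 from 57123303 to 57133611 on the minus strand, and Acsbg1 (ENSMUSG00000032281) on chromosome 9 from 54604877 to 54661870 on the minus strand. All are annotated as protein coding.

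The promoter windows of 4 of the 5 genes that were lower in HT shock and of Aldh1l1, which was not, are shown so that their sequences can be compared. Each holds the 250 bases before and 50 after a transcription start, from RefSeq on GRCm38.p6, where 9 of the 10 genes had an entry. The windows are chr2:102706188-102706487 (plus strand) for Slc1a2, chr1:153899679-153899978 (plus) for Glul, chr5:88887010-88887309 (plus) for Slc4a4, chr14:51913955-51914254 (minus) for Ndrg2 and chr6:90550543-90550842 (plus) for Aldh1l1. Slc4a4 and Ndrg2 have further RefSeq starts that are not shown. The starts of Slc1a2 and Aldh1l1 lie 47779 and 64366 bases downstream of the first annotated base of their genes. Capitals mark matches on either strand to the nuclear factor I core TTGGC, to the CCAAT box, to the GC box GGGCGG or to the TATA box TATAAA. The reverse of the first and the CCAAT box share 4 bases where they meet, as in Glul.
Slc1a2: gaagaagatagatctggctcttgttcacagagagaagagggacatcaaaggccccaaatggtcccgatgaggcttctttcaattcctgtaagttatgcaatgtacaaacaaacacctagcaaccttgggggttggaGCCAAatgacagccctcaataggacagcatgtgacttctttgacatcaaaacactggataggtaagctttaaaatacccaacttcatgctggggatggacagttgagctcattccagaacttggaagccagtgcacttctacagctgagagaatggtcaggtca
Glul: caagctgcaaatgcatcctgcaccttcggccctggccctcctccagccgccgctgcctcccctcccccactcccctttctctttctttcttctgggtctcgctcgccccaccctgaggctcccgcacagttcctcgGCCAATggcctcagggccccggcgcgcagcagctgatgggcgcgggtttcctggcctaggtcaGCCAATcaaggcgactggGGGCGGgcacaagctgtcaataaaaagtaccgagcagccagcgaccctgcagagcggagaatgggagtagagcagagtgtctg
Slc4a4: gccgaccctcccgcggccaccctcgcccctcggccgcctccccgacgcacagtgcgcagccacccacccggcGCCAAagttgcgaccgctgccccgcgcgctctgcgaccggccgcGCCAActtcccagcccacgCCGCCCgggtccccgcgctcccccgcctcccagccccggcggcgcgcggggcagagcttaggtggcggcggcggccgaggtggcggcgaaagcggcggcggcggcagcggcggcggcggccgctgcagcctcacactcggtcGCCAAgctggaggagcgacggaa
Ndrg2: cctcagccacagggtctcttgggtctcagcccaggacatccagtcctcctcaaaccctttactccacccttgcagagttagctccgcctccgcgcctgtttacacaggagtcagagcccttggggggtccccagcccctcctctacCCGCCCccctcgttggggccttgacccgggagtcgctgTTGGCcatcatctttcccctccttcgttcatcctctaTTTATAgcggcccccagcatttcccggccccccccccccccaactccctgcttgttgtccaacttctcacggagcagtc
Aldh1l1: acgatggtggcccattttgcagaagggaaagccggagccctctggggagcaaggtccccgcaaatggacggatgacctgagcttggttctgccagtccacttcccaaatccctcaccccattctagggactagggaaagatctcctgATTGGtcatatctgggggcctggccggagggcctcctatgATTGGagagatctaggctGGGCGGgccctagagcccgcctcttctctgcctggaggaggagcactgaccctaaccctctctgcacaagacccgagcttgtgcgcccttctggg

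The 5 windows differ widely in base composition. The Slc4a4 window had a GC content of 80% and 50 CG pairs, and the Slc1a2 window a GC content of 45.7% and 1 CG pair, against medians of 52.7% and 7 over 32851 mouse promoters. TTGGC, the core of the site of nuclear factor I, a factor family of astrocytes, occurred in the windows of Slc1a2 (1 match), Glul (2), Slc4a4 (3) and Ndrg2 (1) and not in that of Aldh1l1. Among windows not shown, that of Acsbg1 had 2 matches. The Slc4a4 window chr5:89027716-89028015 and the Ndrg2 window chr14:51913439-51913738 had 1 each. Those of Gja1, Gjb6, Slc1a3 and the Ndrg2 window chr14:51913280-51913579 had none. TTGGC occurs in 46.7% of all promoters. The full nuclear factor I palindrome was in none of the 5 windows and is in 0.0365% of all promoters. CCAAT was in the windows of Glul and Aldh1l1, with 2 matches each (37.4% of all promoters). GGGCGG was in those of Glul, Slc4a4, Ndrg2 and Aldh1l1, with 1 match each (35.7% of all). TATAAA was in the window of Ndrg2, on the opposite strand with its first base at -29 from the start (13.6% of all). The SOX motif ACAATGG had no match in the 5 windows and occurs in 3.66% of promoters. The STAT motif TTCNNNGAA (8.3% of promoters), the E-box CACGTG (7.15%) and the cyclic AMP element TGACGTCA (1.79%) had none either. These matches describe letters and show no binding.

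HT shock was first set against WT shock, the genotype difference after foot-shock. Of the 10 genes, 5 were lower in HT shock at an adjusted p under 0.05 and 0 were higher: Slc4a4, Slc1a2, Glul, Ndrg2 and Acsbg1. Over all genes tested, 5.33% were called lower and 3.95% higher (913 and 676 genes), or 421 lower and 479 higher after the libraries were corrected for GC content and transcript length, a step chosen after seeing the data. The median log2 difference of the 10 genes was -0.19, and that of all genes 0.004. The fitted log2 differences of HT shock against WT shock were also taken as percentages. They were -25.1% for Slc4a4, -18.1% for Slc1a2, -13.2% for Glul, -11.1% for Ndrg2 and -7.55% for Acsbg1. These values compare separate groups and show no fall within a group. In brain tissue, fewer astrocytes and less of a transcript per astrocyte cannot be told apart. All p-values that follow are from limma, two-sided, adjusted by Benjamini-Hochberg over 17118 genes unless called unadjusted.

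Slc1a2 ranged between 43982 and 54542 normalized counts in HT shock, with a median of 46723, against 56583, 58776, 59056, 59844 and 55967 in the 5 WT shock libraries. All HT shock libraries were below all WT shock libraries, and HT shock replicate 6, the highest, came nearest. The means were 47604 ± 3595 in HT shock and 58045 ± 1677 in WT shock (SD, n = 6 and 5). The log2 difference was -0.29 ± 0.06 (SE, adjusted p = 0.0093). After the length and GC correction it was -0.14 and still passed.

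Glul ranged between 39524 and 44253 normalized counts in HT shock, with a median of 40044, against 44213, 47468, 49857, 45467 and 49604 in WT shock. The groups overlapped by a single pair, since the highest HT shock library lay just above the lowest WT shock library. Means were 41071 ± 2058 in HT shock and 47322 ± 2488 in WT shock, a log2 difference of -0.20 ± 0.04 (SE, adjusted p = 0.0063). Slc1a3 averaged 13385 ± 999 in HT shock and 14481 ± 889 in WT shock, with a log2 difference of -0.11 that did not pass (95% interval -0.22 to -0.01, adjusted p = 0.140). Of the transporters and the enzyme of the uptake route, Slc1a2 and Glul passed the test and Slc1a3 did not, and the difference between Slc1a2 and Slc1a3 was not tested.

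Slc4a4, which moves sodium and bicarbonate across the astrocyte membrane and buffers pH, had the largest difference of the 10. Its HT shock libraries ranged between 4420 and 5461 normalized counts with a median of 4787, against 6426, 6795, 6208, 6416 and 6651 in WT shock. The groups did not overlap. Means were 4879 ± 409 in HT shock and 6499 ± 228 in WT shock, and the log2 difference was -0.42 ± 0.08 (SE, adjusted p = 0.0054). In the 10 other settings run, among them the length and GC correction, it was between -0.44 and -0.29 and passed in each. Aqp4 averaged 3482 ± 353 in HT shock and 4130 ± 374 in WT shock. Its log2 difference of -0.25 did not pass (95% interval -0.45 to -0.05, adjusted p = 0.0942).

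The gap junction genes pointed the same way without passing. Gja1 averaged 3790 ± 340 normalized counts in HT shock and 4279 ± 245 in WT shock, with a log2 difference of -0.18 (95% interval -0.31 to -0.05, adjusted p = 0.0698). Gjb6 averaged 1308 ± 105 in HT shock and 1536 ± 263 in WT shock, a log2 difference of -0.22 (95% interval -0.39 to -0.05, adjusted p = 0.0854). The 5 WT shock libraries of Gjb6 were at 1286, 1300, 1869, 1479 and 1746 normalized counts, so replicates 3 and 5 stood well above the rest. Without HT control replicate 6, which belongs to neither group but enters the shared estimate of spread, Aqp4 (adjusted p = 0.0316) and Gja1 (adjusted p = 0.0394) also passed. Then 7 of the 10 genes and 9.98% of all genes were called lower. After the length and GC correction, with all libraries, the differences were smaller and did not pass, at -0.13 for Aqp4 (adjusted p = 0.287), -0.11 for Gja1 (adjusted p = 0.225) and -0.05 for Slc1a3 (adjusted p = 0.577).

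Ndrg2, a cytosolic protein that marks astrocytes across the brain, had the smallest p of the 10 and ranked 10 among all 17118 genes. It ranged between 21004 and 21750 normalized counts in HT shock, with a median of 21445, against 22823, 23385, 24257, 25565 and 24416 in WT shock. No libraries overlapped, and the HT shock libraries were tightly grouped. Means were 21411 ± 303 in HT shock and 24089 ± 1050 in WT shock, a log2 difference of -0.17 ± 0.03 (SE, adjusted p = 0.0034).

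Acsbg1, which activates long-chain fatty acids for oxidation, was between 4792 and 4889 normalized counts in HT shock with a median of 4828, against 4926, 5325, 5114, 5367 and 5435 in WT shock. The groups did not overlap, though the gap was narrow. The log2 difference was -0.11 ± 0.03 (SE, adjusted p = 0.038). This call was lost in 9 of the 23 fits that left out a library. With the length and GC correction the difference was -0.17. Aldh1l1 averaged 1882 ± 73.9 in HT shock and 1873 ± 104 in WT shock, with fully overlapping libraries and a log2 difference of 0.01 (95% interval -0.10 to 0.12, adjusted p = 0.945). Without overlap between groups, Slc1a2, Slc4a4, Ndrg2 and Acsbg1 were lower in HT shock, 4 of the 10 genes, and 4.82% of all genes were.

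**Figure D2:**
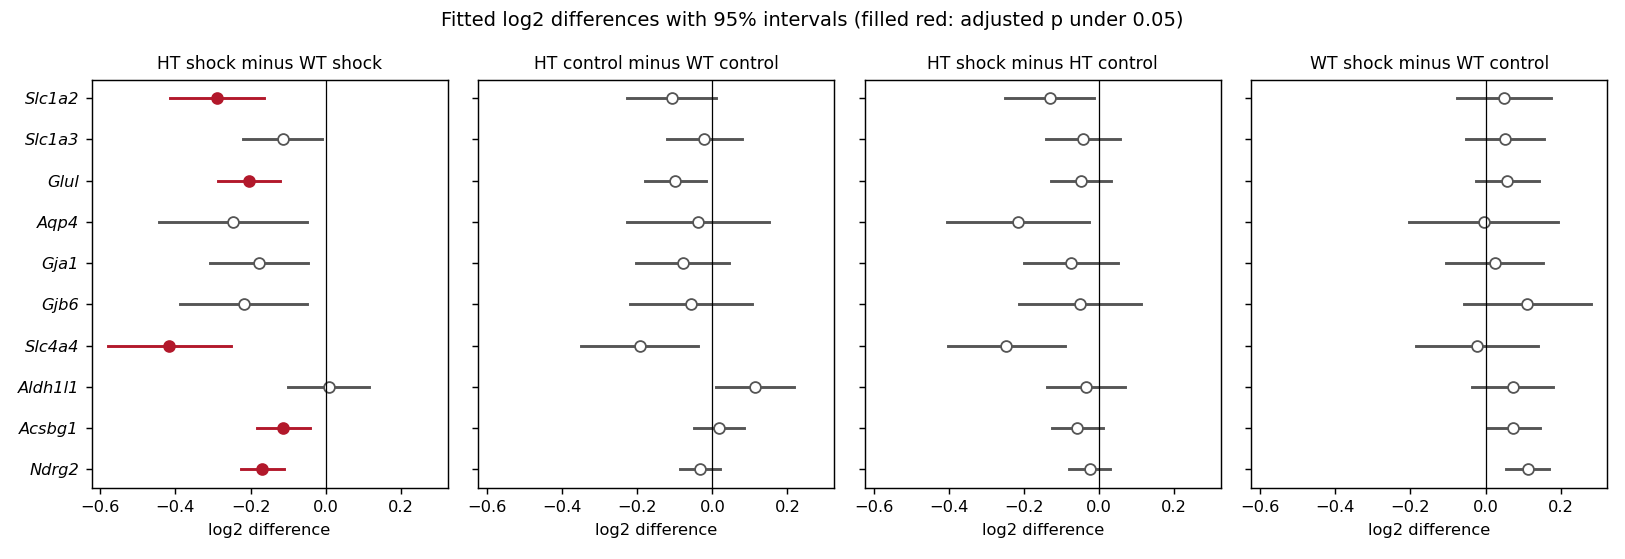
Fitted log2 differences of the 10 genes (horizontal axes, log2 scale) with 95% intervals in 4 comparisons, the first-named group over the second. Filled red points passed an adjusted p of 0.05; they occur in HT shock minus WT shock, where Slc4a4 is lowest at -0.42.

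HT control against WT control gives the genotype difference without shock. None of the 10 genes and none of the 17118 genes passed with limma (0% called lower and 0% higher), and 1895 genes had an unadjusted p under 0.05. Slc4a4 averaged 5820 ± 792 normalized counts in HT control and 6624 ± 629 in WT control (SD, n = 6 each), with a log2 difference of -0.19 ± 0.08 (SE, adjusted p = 0.394). Glul averaged 42479 ± 2203 in HT control and 45453 ± 1917 in WT control, a log2 difference of -0.10 ± 0.04 (adjusted p = 0.394). Aldh1l1 ran the other way, at 1929 ± 99.6 in HT control and 1785 ± 156 in WT control, a log2 difference of 0.11 ± 0.05 (adjusted p = 0.421). Those 3 genes had an unadjusted p under 0.05. Slc1a2 ranged between 43162 and 60585 normalized counts in HT control, with a median of 53521, and between 51317 and 60222 in WT control, with a median of 56501. The HT control libraries spread over the whole range of WT control and past both of its ends, and the log2 difference was -0.11 (adjusted p = 0.488). Without HT control replicate 6 the differences were -0.12 for Slc4a4 (adjusted p = 0.814) and -0.05 for Slc1a2 (adjusted p = 0.914). The median log2 difference of the 10 genes was -0.05. In this comparison 0 of the 10 genes and 0.234% of all genes were lower without overlap.

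HT shock against HT control gives the foot-shock difference in heterozygous brain. None of the 10 genes and none of all genes passed with limma (0% lower, 0% higher), and 2352 genes had an unadjusted p under 0.05. All 10 genes had negative differences, as did 49.0% of all genes. So did all 12 striatal neuron, all 10 oligodendrocyte and all 10 mural or fibroblast marker genes, and 3 of 10 general neuron genes. Slc4a4 averaged 4879 ± 409 normalized counts in HT shock and 5820 ± 792 in HT control, a log2 difference of -0.25 ± 0.08 (SE, adjusted p = 0.256). Aqp4 averaged 3482 ± 353 in HT shock and 4064 ± 589 in HT control, a log2 difference of -0.21 ± 0.09 (adjusted p = 0.326). For Slc1a2 it was -0.13 ± 0.06 (adjusted p = 0.333). After the length and GC correction the differences were -0.16 for Slc4a4, -0.14 for Aqp4 and -0.03 for Slc1a2. No gene of the 10 was lower without overlap, against 0.105% of all genes.

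HT control replicate 6 set the calls in that comparison. It was the lowest of its group for Slc1a2 (43162 normalized counts), Slc4a4 (4454), Aqp4 (3025), Gja1 (3533), Glul (39258) and Ndrg2 (20796), and the highest for Aldh1l1 (2062). Without it, 3 of the 10 genes were lower in HT shock, and 7.58% of all genes were. Slc4a4 then differed by -0.32 ± 0.06 (SE, adjusted p = 0.0036), Aqp4 by -0.30 ± 0.08 (adjusted p = 0.0161) and Slc1a2 by -0.18 ± 0.05 (adjusted p = 0.0162) on the log2 scale. No label gives a reason to leave the library out. The comparison shares the HT shock libraries with that of HT shock against WT shock, so the values are not separate evidence.

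WT shock against WT control gives the foot-shock difference in wild-type brain. None of the 10 genes and none of all genes passed with limma (0% lower, 0% higher), and 637 genes had an unadjusted p under 0.05. Of the 10 genes 8 had positive differences, and the median of the 10 was 0.05. Over all genes 50.2% had negative differences. Of 10 oligodendrocyte and 10 endothelial marker genes 9 each had positive ones, and of 10 general neuron genes 3 did. Ndrg2 had the fourth smallest p of the whole table. It averaged 24089 ± 1050 normalized counts in WT shock and 22280 ± 414 in WT control, where the libraries lay between 21707 and 22741. All 5 WT shock libraries were above all 6 WT control libraries, which held for 0.164% of all genes. The log2 difference of Ndrg2 was 0.11 ± 0.03 (SE, unadjusted p = 0.00044, adjusted p = 0.998). Acsbg1 averaged 5234 ± 210 in WT shock and 4971 ± 144 in WT control, a log2 difference of 0.07 ± 0.03 (adjusted p = 0.998). For Slc1a2 the means were 58045 ± 1677 in WT shock and 56127 ± 2943 in WT control, and for Slc4a4 6499 ± 228 in WT shock and 6624 ± 629 in WT control.

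Whether the foot-shock difference depended on genotype was tested as an interaction, the HT difference minus the WT difference. None of the 10 genes and none of all genes passed with limma (0% lower, 0% higher), and 1101 genes had an unadjusted p under 0.05. All 10 estimates were negative, with a median of -0.13, and 50.2% of all genes had negative ones. So did all 10 endothelial, all 10 mural or fibroblast and all 10 oligodendrocyte marker genes (medians -0.30, -0.25 and -0.17). Of 10 general neuron genes 3 did. Ndrg2 had -0.14 ± 0.04 (SE, unadjusted p = 0.0015, adjusted p = 0.552), Acsbg1 -0.13 ± 0.05 (adjusted p = 0.713) and Slc1a2 -0.18 ± 0.08 (adjusted p = 0.772) on the log2 scale. The 5 calls in HT shock against WT shock and their absence between the control groups are therefore not shown to differ.

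With both treatments averaged, HT against WT, 5 of the 10 genes were lower and 0 were higher, with 8.62% of all genes called lower and 5.42% higher. Slc4a4 differed by -0.31 ± 0.05 (SE, adjusted p = 0.0024), Slc1a2 by -0.20 ± 0.04 (adjusted p = 0.0055), Glul by -0.15 ± 0.03 (adjusted p = 0.0025) and Ndrg2 by -0.10 ± 0.02 (adjusted p = 0.0027) on the log2 scale. Gja1 passed narrowly at -0.13 ± 0.04 (adjusted p = 0.0486), and without a library this call held in 8 of 23 fits. Without HT control replicate 6 it was at -0.11 and did not pass (adjusted p = 0.0863). After the length and GC correction Gja1 was at -0.07 and did not pass (adjusted p = 0.248). With that correction the Slc1a2 difference was -0.09 and still passed. Slc4a4 was between -0.31 and -0.21 in the 9 other settings run, that correction among them, and passed in each. Acsbg1 (-0.05, adjusted p = 0.166) did not pass and did so after that correction (-0.10, adjusted p = 0.0082). Aldh1l1 was at 0.06 ± 0.04 (adjusted p = 0.259). This average contains the libraries of both genotype comparisons above. For Ndrg2 these differences were -0.17 between the shock groups and -0.03 ± 0.03 (adjusted p = 0.625) between the control groups.

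The 10 genes did not vary as a single block. As the mean log2 deviation of the 10 genes from their means over all libraries, HT shock libraries lay between -0.19 and -0.01, HT control between -0.15 and 0.07, WT shock between 0.01 and 0.13 and WT control between -0.02 and 0.13. HT shock replicate 2 was lowest, with all 10 genes below their median over the 23 libraries. HT control replicate 6 was next, at -0.15, and HT shock replicate 6 was the highest of its group, at -0.01.

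**Figure D3:**
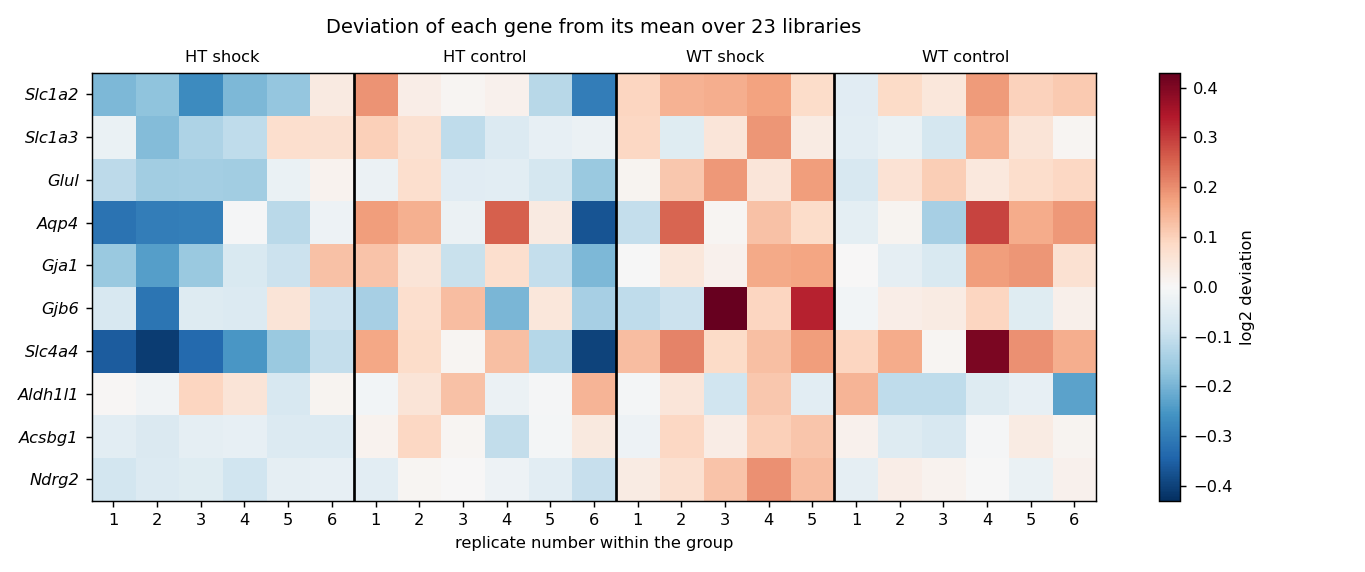
Log2 deviation of each of the 10 genes (rows) from its mean over 23 libraries, by replicate within HT shock, HT control, WT shock and WT control from left to right (blue lower, red higher). Slc4a4 has its lowest value, -0.41, in HT shock replicate 2, Slc1a2 and Aqp4 have theirs in HT control replicate 6, and Aldh1l1 has its own, -0.23, in WT control replicate 6.

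With group means removed, Pearson r between pairs of the 10 genes ranged from -0.59 to 0.88 over 23 libraries, with a median of 0.31, and 35 of 45 pairs were positive. Permutation p-values, drawn within groups and adjusted over the 45 pairs, were under 0.05 for 9 pairs. Aqp4 and Slc4a4 varied together most closely (r = 0.88, permutation p = 1e-05, the smallest the permutations can give, adjusted p = 0.0003; rho = 0.84, adjusted permutation p = 0.00045). Without the 2 libraries farthest from the median in Aqp4, r was 0.79. Slc1a2 and Slc4a4 followed (r = 0.83, adjusted permutation p = 0.0009; rho = 0.73, adjusted permutation p = 0.0060; r = 0.69 without the 2 farthest libraries). Aldh1l1 had a median r of -0.19 with the other 9 genes. It ran against Glul (r = -0.59, adjusted permutation p = 0.0257; rho = -0.57, adjusted permutation p = 0.0575; r = -0.55 without the 2 farthest libraries). Libraries share normalization across genes, so these values are not independent of one another.

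Across all tested genes, those whose log2 profile over the 23 libraries was most like the mean profile of the 10 were Nacc2 (r = 0.89), Nhsl1 (0.88), Epas1 (0.88), Slc6a11 (0.88), P2ry1 (0.87), Kif13b (0.87), Slc39a12 (0.87) and Nwd1 (0.87). Of these, Slc6a11 encodes a GABA transporter of astrocytes and Slc39a12 a zinc transporter. With group means removed the nearest were Nacc2 (r = 0.85), Gab1 (0.85), Jam2 (0.83) and Ptprz1 (0.83). Among the 10 themselves Gja1, Slc1a2 and Slc4a4 followed the profile most closely (r = 0.87 each), and Aldh1l1 did not (r = -0.14). A gene of the 10 is part of the profile it is set against.

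Of 22 other genes of the glutamate and glutamine cycle, 2 were higher and 1 was lower in HT shock against WT shock, where 3.95% of all genes were higher and 5.33% lower. Their median log2 difference was -0.04, against 0.004 for all genes. The vesicular glutamate transporter Slc17a7, used mainly by cortical and hippocampal neurons, was higher (0.25 ± 0.05 SE, adjusted p = 0.0045), as was the mitochondrial glutamate carrier Slc25a22 (0.13 ± 0.04, adjusted p = 0.0246). Slc17a6, the vesicular transporter of many subcortical neurons, was lower (-0.33 ± 0.08, adjusted p = 0.0201). In the genotype average 3 of the 22 were higher and 4 lower (5.42% and 8.62% of all genes), among them Slc17a7 at 0.19, Slc25a22 at 0.14 and Slc17a6 at -0.26.

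Among astrocyte genes for ions, water and coupling beyond the 10, 3 of 15 were lower in HT shock against WT shock and 0 were higher. They included the chloride cotransporter Slc12a2, which other brain cells also use (-0.41 ± 0.08 SE, adjusted p = 0.0054), and the potassium channel Kcnj10 (-0.23 ± 0.06, adjusted p = 0.0241). Of 8 genes for clearing other transmitters 4 were lower and 0 higher. These included the GABA-degrading enzymes, also present in neurons, Abat (-0.23 ± 0.04, adjusted p = 0.0037) and Aldh5a1 (-0.25 ± 0.06, adjusted p = 0.0181) and the GABA transporter Slc6a11 (-0.31 ± 0.07, adjusted p = 0.0118). Of 21 genes of astrocyte metabolism 1 was lower, beside 5.33% of all genes. It was the acyl-CoA synthetase Acsl6 (-0.18 ± 0.04, adjusted p = 0.0192).

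General astrocyte identity genes were lower in 3 of 25 cases in HT shock against WT shock and higher in 0. Over all genes tested, 5.33% were lower and 3.95% higher. The median log2 difference of the 25 genes was -0.08. Those called were the glypican Gpc5 (-0.28 ± 0.06 SE, adjusted p = 0.0112), Slc39a12 (-0.26 ± 0.07, adjusted p = 0.0199) and the transcriptional inhibitor Id4 (-0.17 ± 0.05, adjusted p = 0.0240). None of these 25 genes was at 0 in any library, nor was any of the 10. Of 14 genes of reactive astrocytes 12 were tested (Cxcl10 and Timp1 were below the minimum) and none passed, and the smallest p were those of Osmr (-0.53 ± 0.26, adjusted p = 0.176) and Vim (0.14 ± 0.07, adjusted p = 0.186). In the genotype average Gfap (0.11 ± 0.03, adjusted p = 0.0257) and Vim (0.14 ± 0.05, adjusted p = 0.0486), both intermediate filament genes, were higher in HT, and 0 reactive genes were lower. In that average 5.42% of all genes were called higher and 8.62% lower. Of 4 telencephalic astrocyte genes none passed in HT shock against WT shock, with Lhx2 (0.16, adjusted p = 0.0538) and Slc7a10 (-0.15, adjusted p = 0.144) nearest, and of 6 non-telencephalic ones Slc6a11 did.

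**Figure D4:**
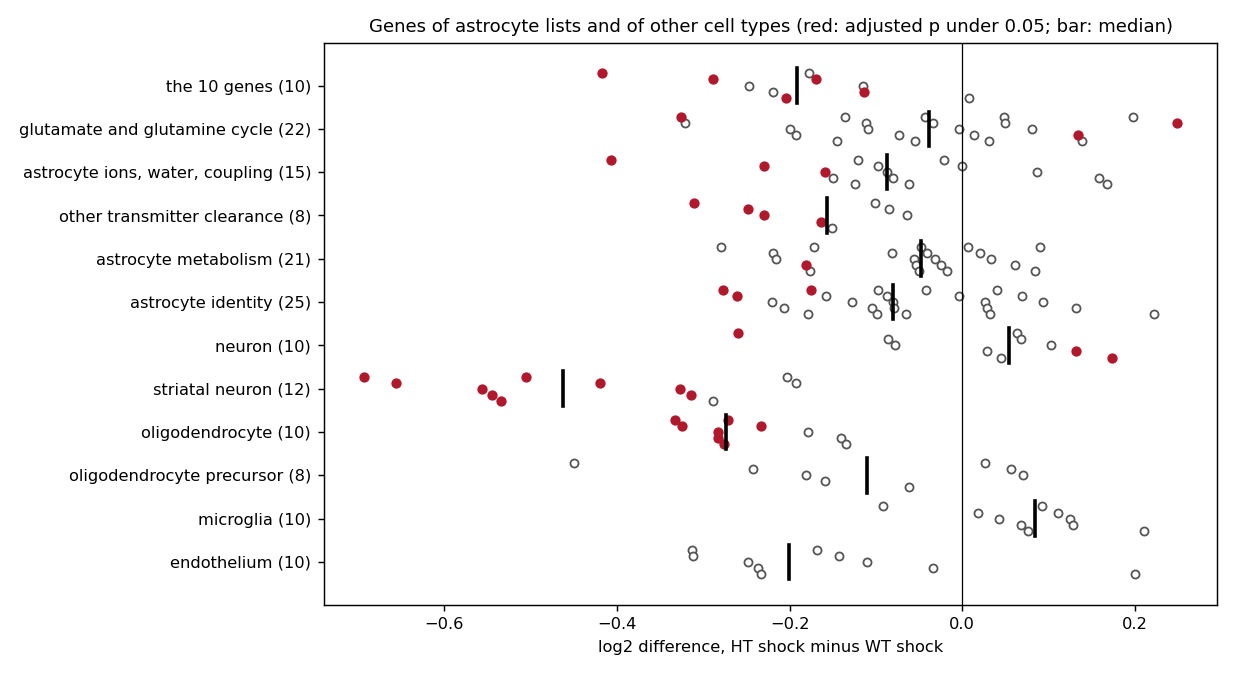
Log2 difference of each gene in HT shock minus WT shock (horizontal axis) by gene list, with the number of genes in brackets (filled red, adjusted p under 0.05; black bar, median). The 10 genes have a median of -0.19, and the other astrocyte lists are nearer to 0. Endothelium is at -0.20, oligodendrocyte at -0.27 and the striatal neuron list at -0.46.

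Markers of other cells also differed between HT shock and WT shock, where 5.33% of all genes were called lower and 3.95% higher. Of 12 genes of striatal projection neurons 9 were lower in HT shock, with a median log2 difference of -0.46. Their summed level was 29974 to 44322 normalized counts in HT shock and 49174 to 50042 in WT shock. Of 10 oligodendrocyte genes 7 were lower, with a median of -0.27 and a summed level of 193662 to 242051 in HT shock and 233602 to 294951 in WT shock. Of 10 general neuron genes 2 were higher and 1 was lower, and their sum was 270853 to 289843 in HT shock and 263926 to 279928 in WT shock. None of 10 microglial and 10 endothelial genes passed, with medians of 0.08 and -0.20, and neither did any of 8 oligodendrocyte precursor, 10 mural or fibroblast, 10 choroid plexus or ependymal and 8 cerebellar genes. No marker of these lists was at 0 in any library. In the genotype average all 12 striatal neuron genes (median log2 difference -0.37) and 6 of 10 oligodendrocyte genes (median -0.18) were lower. There 8.62% of all genes were called lower and 5.42% higher, and of 10 general neuron genes 1 was lower and 2 higher. Between the control groups none passed. All 12 striatal genes (median -0.26) and 8 of 10 oligodendrocyte genes (median -0.11) were negative there, as were 50.2% of all genes. The part of the tissue sampled and of these cell types in the differences of the 10 genes was not tested.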

How the data were processed

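Brain RNA of 23 libraries was prepared with a TruSeq Stranded mRNA kit, per the labels' protocols. In the table the authors deposited, each value is a signal, a normalized count with decimals. Salmon 1.1.0, R 3.6.2, DESeq2 1.26.0 and GRCm38 stand, without roles, per the submitters' processing notes. Between 17.3% and 23.8% of low values lay within 0.1 of whole steps, so reads could not be recovered, and no count model was fitted. Of 24 library columns 1 matched no label and stayed out. Titles gave the groups. Symbols were found for 18563 of 18578 IDs, with GENCODE M21 coordinates on GRCm38.

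Values were taken as log2(normalized count + 1), which understates changes of low genes, and a gene needed a mean of 10 or more. Limma 3.58.1 (R 4.3.3, statmod 1.5.0) fitted the 4 groups in one model with trend and robust moderation, tested on simulated data. In 3 runs, 200 of 17118 independently varying genes were changed in HT shock. Of log2 changes of 0.15, 0.25, 0.5 and 1, 10.7%, 31.3%, 70% and 88% were recovered against WT shock. Of 50754 unchanged genes 13 were called. Differences of the size seen in the 10 genes can therefore go uncalled. The 10 genes and the 17 wider lists were chosen with earlier results of these data known. Up to 3 called genes per wider list, or the 2 with the smallest p where none was called, are named, and some result of this rule is not reported here. Pair correlations used 100000 permutations. The replicate numbers were not used to pair libraries. Alternatives were median centring, pseudocounts of 0.5 and 5, no filter, a filter of 20 in 5 or more libraries, only the groups compared, 2 replicate blocks, library weights and leaving out each library. A correction for transcript length and GC content was added after seeing the data. Python 3.11.15 with matplotlib 3.10.9 drew the figures.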

Additional observations from a re-analysis of the deposited data

Results flagged for a closer look

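Of 40 groups of libraries looked at for the 10 genes, 2 held a library far from the rest, and chance alone sets apart about 1 group in 20. Slc1a2 in HT shock had its highest library, replicate 6, at 54542 normalized counts, with the other 5 libraries between 43982 and 47299. Glul in WT control had its lowest library, replicate 1, at 41795 normalized counts, with the group median at 45931.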

How the results depend on the processing

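Slc1a2, Glul, Slc4a4 and Ndrg2 passed as lower in HT shock against WT shock, and in the genotype average, in all 23 fits without a library and in all other settings run (10 and 9). Acsbg1 in HT shock against WT shock passed in 14 of 23 and 8 of 10, and Gja1 in the genotype average in 8 of 23 and 5 of 9. With library weights 8 of the 10 genes passed in HT shock against WT shock and 3 in HT shock against HT control. All of these were lower, and of the 17118 genes tested 2065 and 1581 were then called lower. Without a library the counts of the 10 genes were 4 to 7 and 0 to 3, and the 3 came without HT control replicate 6.

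Counts over all genes moved more. In HT shock against WT shock (1589 genes) they were 2932 in a fit of only the groups compared, 3775 with library weights, 900 after the length and GC correction (421 lower and 479 higher, where 913 were lower and 676 higher without it) and 422 to 2923 without a library. In HT shock against HT control (0) they were 1 with only the groups compared, 2792 with weights, 4 with the correction and 0 to 2065 without a library. In HT control against WT control (0) the correction gave 1 and leaving out a library 0 to 2. For the interaction (0) weights gave 2, the correction 1 and leaving out a library 0 to 1. In the genotype average (2404) the correction gave 1261, and leaving out a library 1685 to 3088. The cause was not tested.

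Whether the replicate numbers pair the libraries was not settled. By title numbers, same-numbered libraries of different groups had a median r of 0.016 (-0.15 to 0.19), against 0.0037 for other numbers. With their own number 8 of 23 libraries correlated best. By library-name numbers the median r was 0.017 (-0.11 to 0.19), against 0.0024, and 2 of 23 did so. With a replicate block by title numbers, 450 genes were called in HT shock against WT shock and 1505 in the genotype average, and by library-name numbers 976 in HT shock against WT shock. Acsbg1 then had an adjusted p of 0.0765 (title) and 0.0604 (library name), and Gja1 in the genotype average 0.0580 and 0.0710.

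Over all settings, single-gene results kept sign and side of the threshold 1895 times, passed only in the alternative 15 times, passed only without it 30 times and changed sign 20 times. The sign changes were of uncalled differences near 0. Aqp4 in WT shock against WT control (-0.005) was 0.0013 with median centring and 0.0196 with the correction, and -0.0492 to 0.0383 without a library. Aqp4 in HT control against WT control (-0.04) was 0.0115 with weights, 0.0303 with the correction and -0.0817 to 0.0447 without a library. With the correction Slc1a3 was at 0.0152 and Acsbg1 at -0.0311 there. Without a library Slc1a3 there was -0.0434 to 0.0069, Aldh1l1 in HT shock against WT shock -0.0152 to 0.0353, and in WT shock against WT control Gja1 -0.00036 to 0.0505 and Slc4a4 -0.0551 to 0.0239. Depth is unknown, so no limit from counting can be given.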
